A study of Mus musculus with 6 samples.

Results

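The genes described here encode the proteins by which long-term haematopoietic stem cells (LT-HSCs) and multipotent progenitors are told apart in flow cytometry, together with a stem cell reporter gene. They were taken by symbol from a table of read counts per gene: Procr, Slamf1, Cd48, Cd34, Flt3, Kit, Ly6a, Cd27, Slamf2 and Fgd5. Slamf2 is an older name of Cd48 in RefSeq and has no row of its own, so the 10 names gave 9 genes of 49997 in the table. All 9 passed the filter on low counts that left 21445 genes for testing. Fgd5 encodes an intracellular exchange factor and not a surface protein. It stands with the others because it is used as a reporter gene of stem cells.

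The study sorted LT-HSCs of C57BL/6J mice aged 4 months from bone marrow by their level of Asrij, the protein of the Ociad1 gene, into an Asrij low and an Asrij high population, and sequenced 3 libraries of each. Under genotype the labels give the strain alone, and they name no treatment. They do not state whether both groups carry an engineered Asrij allele. The labels do not say which surface antibodies made the gate, how Asrij was read in the cells, how pure the sorts were, or whether each library is from a different mouse or pool of mice. P-values therefore measure the spread between these libraries, which may be technical.

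Stem cells of adult mouse marrow are usually sought among cells without lineage antigens that carry the receptor tyrosine kinase c-Kit (Kit) and the anchored protein Sca-1 (Ly6a). Within that compartment the SLAM receptor CD150 (Slamf1) and the endothelial protein C receptor EPCR (Procr) mark long-term stem cells. CD48 (Cd48), CD34 (Cd34) and the cytokine receptor FLT3 (Flt3) appear on the surface as cells pass into multipotent progenitors, and CD27 (Cd27), a receptor of the tumour necrosis factor family, is used in other stem and progenitor gates. A transcript level need not follow the level of the surface protein on which a gate is set.

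Levels below are CPM, a gene's counts relative to its library's total after TMM scaling, given as mean ± SD over n = 3 libraries per group. Fold changes are Asrij high over Asrij low with SE. Every adjusted p comes from the quasi-likelihood test of edgeR, with Benjamini-Hochberg adjustment over all 21445 genes. Library totals ran from 24707012 to 72855125 counts, the 3 Asrij low libraries being the shallower. Ociad1 had 51.6 ± 5.72 CPM in the low sort and rose to 80.3 ± 5.76 CPM in the high sort (log2 0.64 ± 0.16, adjusted p = 0.0115), a call lost with library totals or upper quartile factors in place of TMM (log2 0.36 in each, adjusted p = 0.133 and 0.0834) and without Asrij high replicate 1 (log2 0.53, adjusted p = 0.0831).

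Of the 9 gate genes 8 were lower in Asrij high, and Cd48 did not pass the test. By the same rule 17.7% of all genes tested were lower in Asrij high, 21.7% were higher, and 39.4% were called in either direction. The 3 Asrij high libraries lay below the 3 Asrij low libraries for the same 8 genes, which was so for 24.8% of all genes tested (55.0% lay apart in either direction). The median log2 fold change of the 9 genes was -2.09, and that of all genes tested was -0.02. No gate gene was higher by edgeR (0 also at an unadjusted p under 0.05), by DESeq2 (0) or by limma-voom (0). Without a filter on low counts 5 of the 9 were called, the calls of Cd34 (adjusted p = 0.0606), Flt3 (0.136) and Fgd5 (0.0791) being lost. Scaling by library totals or upper quartile factors moved the median of all genes by -0.27 and left 40.2% and 39.9% of called genes higher, in place of 55.1%, and all 8 calls held under each. In bulk libraries fewer cells that express a gene and less RNA of it per cell cannot be told apart.

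**Figure D1:**
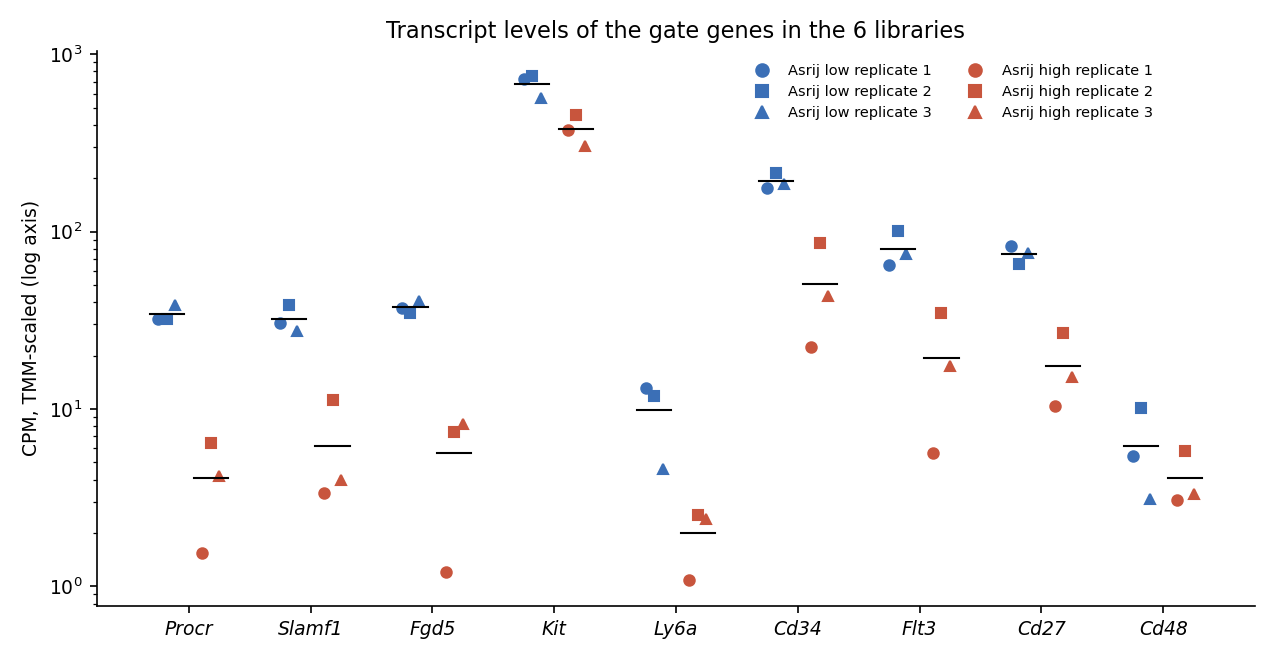
CPM (TMM-scaled, log axis) of the 9 gate genes in each library, Asrij low in blue and Asrij high in red, with a marker shape for each replicate number and a bar at the group mean. The groups are apart for 8 genes and overlap for Cd48, and Asrij high replicate 2 (square) is the highest of its group for 7 of the 8.

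Among the gate genes, the long-term stem cell markers Procr and Slamf1 were lower in Asrij high, as was the reporter gene Fgd5. Procr was at 32.3, 32.0 and 38.6 CPM in Asrij low replicates 1 to 3 and at 1.54, 6.46 and 4.19 CPM in Asrij high replicates 1 to 3. The Asrij low libraries were close together, and every Asrij high library was far below them. The fall was 8.43-fold (log2 -3.08 ± 0.45, adjusted p = 0.00115). Slamf1, whose protein is a homophilic receptor, had 30.7, 38.4 and 27.4 CPM in Asrij low against 3.38, 11.2 and 3.97 CPM in Asrij high. Replicate 2 was the highest library of each group, and the groups did not overlap. Slamf1 fell 5.21-fold (log2 -2.38 ± 0.44, adjusted p = 0.00312), and without Asrij high replicate 2 the log2 value was -3.09.

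Fgd5, a guanine nucleotide exchange factor for Cdc42 whose locus is used to label stem cells, was at 37.1, 34.7 and 40.8 CPM in Asrij low and at 1.21, 7.37 and 8.28 CPM in Asrij high. Asrij high replicate 1 stood well below the other 2 libraries of its group, with 66 counts against 469 and 546. The fall was 6.66-fold (log2 -2.74 ± 0.59, adjusted p = 0.00720). The spread within Asrij high, 6.83-fold from lowest to highest, was the widest of the 9 genes, while within Asrij low Fgd5 varied 1.17-fold, the least of the 9.

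The promoters of these 3 genes and of Cd48 are printed. Procr, Fgd5 and Slamf1 are the gate genes used to mark stem cells and were lower, whereas Cd48, a neighbour of Slamf1 on chromosome 1, was not called. Each is the RefSeq window on GRCm38.p6 from 250 bases before to 50 after an annotated start, on the + strand, the strand of all 4 genes: chr2:155750967-155751266, chr6:91978715-91979014, chr1:171766882-171767181 and chr1:171681742-171682041. The RefSeq span of Cd48 begins at 171681245, so its whole window lies inside the gene. Capitals mark matches to 4 short motifs named for the factor families that bind such letters, searched on both strands.
Procr: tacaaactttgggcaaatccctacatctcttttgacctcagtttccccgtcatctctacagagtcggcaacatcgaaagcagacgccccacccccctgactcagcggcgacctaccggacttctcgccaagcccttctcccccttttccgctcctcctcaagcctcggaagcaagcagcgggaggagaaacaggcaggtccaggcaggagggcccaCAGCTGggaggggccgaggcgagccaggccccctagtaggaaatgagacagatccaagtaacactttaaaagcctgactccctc
Fgd5: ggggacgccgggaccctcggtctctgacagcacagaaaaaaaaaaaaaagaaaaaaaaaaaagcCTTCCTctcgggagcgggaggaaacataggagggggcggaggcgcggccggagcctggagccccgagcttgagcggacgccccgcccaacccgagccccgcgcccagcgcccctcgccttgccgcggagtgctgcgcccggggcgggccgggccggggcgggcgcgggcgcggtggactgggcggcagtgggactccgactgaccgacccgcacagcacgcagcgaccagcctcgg
Slamf1: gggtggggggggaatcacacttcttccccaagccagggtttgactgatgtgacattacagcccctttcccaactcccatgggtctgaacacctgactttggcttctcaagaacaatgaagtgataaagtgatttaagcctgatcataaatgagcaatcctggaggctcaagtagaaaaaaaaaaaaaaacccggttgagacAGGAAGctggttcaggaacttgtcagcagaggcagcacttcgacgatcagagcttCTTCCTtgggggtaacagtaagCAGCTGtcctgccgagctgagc
Cd48: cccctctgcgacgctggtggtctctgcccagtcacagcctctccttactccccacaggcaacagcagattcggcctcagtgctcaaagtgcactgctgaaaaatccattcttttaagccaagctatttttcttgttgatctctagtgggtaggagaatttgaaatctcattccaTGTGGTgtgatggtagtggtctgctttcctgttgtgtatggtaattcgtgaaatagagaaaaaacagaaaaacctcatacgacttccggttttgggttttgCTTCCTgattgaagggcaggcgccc

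The letters searched were AGATAA for the family of GATA factors, AGGAAG for the ETS family, TGTGGT for the RUNX family and CAGCTG, a form of the E-box. Other letters that these families may bind were not searched. No printed match overlaps another. Procr holds 1 E-box match, Fgd5 1 ETS match, Slamf1 2 ETS matches and 1 E-box match, and Cd48 1 ETS and 1 RUNX match. Among all 32851 windows of 300 bases in the RefSeq table, 35.4% hold the ETS letters, 16.8% the RUNX letters, 16.3% the E-box letters and 11.2% the GATA letters. None of the 9 windows found for 8 of the genes holds the GATA letters on either strand. GC content ran from 47.3% (Cd48) and 49.0% (Slamf1) to 58.3% (Procr) and 71.3% (Fgd5), against a median of 52.7% over all windows. A match is a description of letters, not of a bound site.

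The antigens by which the compartment itself is gated moved by different amounts. Kit, the receptor for stem cell factor, was at 729, 754 and 563 CPM in Asrij low and at 373, 456 and 305 CPM in Asrij high. It fell 1.80-fold (log2 -0.85 ± 0.20, adjusted p = 0.00963), the smallest of the 8 falls, and stayed among the most abundant transcripts, at percentiles 97.0 to 98.7 of the tested genes by count in Asrij high and 99.6 to 99.7 in Asrij low. Ly6a, which encodes Sca-1, was at 13.2, 11.8 and 4.59 CPM in Asrij low and at 1.08, 2.51 and 2.40 CPM in Asrij high. Asrij low replicate 3 was lower than the other 2 libraries of its group but above all 3 Asrij high libraries. Ly6a fell 4.94-fold (log2 -2.31 ± 0.50, adjusted p = 0.00628). It was thinly counted, with 59 to 160 counts in Asrij high and 119 to 714 in Asrij low, and Gm28068 overlaps it.

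Of the 3 antigens that appear on progenitors, Cd34 and Flt3 were lower in Asrij high and Cd48 did not pass the test. Cd34, a sialomucin, was at 176, 214 and 186 CPM in Asrij low and at 22.5, 86.2 and 43.5 CPM in Asrij high. Asrij high replicate 2 came nearest to Asrij low but lay below all of its libraries. Cd34 fell 3.78-fold (log2 -1.92 ± 0.42, adjusted p = 0.00744), and Gm16897, which overlaps it, had 257 to 1096 counts in Asrij high and 1050 to 1698 in Asrij low, so reads may be shared. Flt3, the receptor for FLT3 ligand, was at 64.7, 101 and 75.0 CPM in Asrij low and at 5.68, 34.6 and 17.5 CPM in Asrij high, without overlap. It fell 4.16-fold (log2 -2.06 ± 0.57, adjusted p = 0.0235), and the call was lost without Asrij high replicate 3 (log2 -2.05, adjusted p = 0.0984). Without Asrij high replicate 2 the log2 values of Cd34 and Flt3 were -2.50 and -2.75.

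Cd27 was at 82.8, 65.8 and 75.3 CPM in Asrij low and at 10.4, 26.9 and 15.2 CPM in Asrij high. The groups did not overlap, and the fall was 4.26-fold (log2 -2.09 ± 0.32, adjusted p = 0.00133). E130112N10Rik and Mir8113 overlap Cd27 and had counts in every library, so the value of Cd27 alone is uncertain to that extent.

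Cd48, a ligand of CD244 and CD2 whose absence from the surface defines the SLAM gate, was at 5.46, 10.1 and 3.09 CPM in Asrij low and at 3.07, 5.83 and 3.32 CPM in Asrij high. The groups overlapped, since Asrij low replicate 3 was as low as Asrij high replicates 1 and 3, and replicate 2 was the highest of each group. The difference did not pass the test (log2 -0.61 ± 0.49, 95% interval -1.70 to 0.48, adjusted p = 0.350), and both a fall and a small rise lie within that interval. The estimate was -0.04 without Asrij low replicate 2 and -1.29 after removal of both Asrij low replicate 3 and Asrij high replicate 2 (adjusted p = 0.951 and 0.0520). Cd48 had 80 to 371 counts per library, so its level was counted with less precision than that of Kit, with 14577 to 39398.

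**Figure D2:**
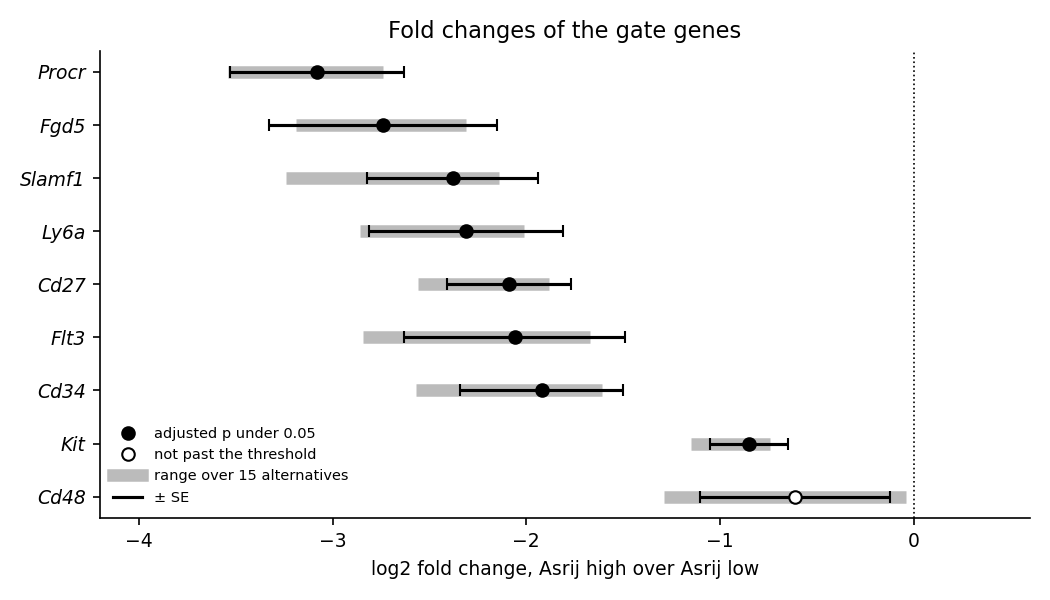
Log2 fold change, Asrij high over Asrij low, of each gate gene as a point with its SE, filled where the adjusted p was under 0.05, over a grey bar that spans its 15 alternative fits. Procr lies farthest from 0 at -3.08, Kit nearest among the called genes at -0.85, and the grey bar of Cd48 reaches from -1.29 to -0.04.

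Within Asrij high the gate genes shared an order. Replicate 2 was the highest library for 7 of the 8 called genes and replicate 1 the lowest for 7, the exceptions being Fgd5, highest in replicate 3, and Kit, lowest in replicate 3. This order is not particular to them. Among the 3797 genes called lower, replicate 2 was the highest Asrij high library for 74.8% and replicate 1 the lowest for 63.8%, while over all genes tested the shares were 41.1% and 32.3%. From lowest to highest Asrij high library, Flt3 varied 6.10-fold, Procr 4.18-fold, Cd34 3.83-fold and Kit 1.49-fold. Within Asrij low the order differed from gene to gene, replicate 2 being the highest for 4 of the 8 and the lowest for 3.

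Set per kilobase of annotated exon, levels can be compared between genes. In Asrij low the order of mean CPM per kb was Kit (129.8 ± 19.8), Cd34 (73.5 ± 7.61), Cd27 (47.9 ± 5.45), Flt3 (21.9 ± 5.07), Procr (21.5 ± 2.35), Slamf1 (11.9 ± 2.10), Ly6a (9.85 ± 4.61), Fgd5 (6.16 ± 0.501) and Cd48 (5.23 ± 3.01). The libraries of Flt3 and Procr overlapped, as did those of Slamf1 and Ly6a, Ly6a and Fgd5, and Fgd5 and Cd48. In Asrij high the order was Kit (72.0 ± 14.3), Cd34 (19.4 ± 12.4), Cd27 (11.2 ± 5.42), Flt3 (5.27 ± 3.98), Cd48 (3.42 ± 1.28), Procr (2.54 ± 1.54), Slamf1 (2.29 ± 1.61), Ly6a (1.99 ± 0.791) and Fgd5 (0.922 ± 0.631). There Cd48, the last of the 9 in Asrij low, came before Procr and Slamf1, although every neighbouring pair from Cd34 down to Fgd5 overlapped. These lengths are from GENCODE M21, which may not be the annotation of the counts.

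Ratios between 2 genes of the same library do not depend on how libraries are scaled to each other. The log2 ratio of Slamf1 to Cd48 counts, the pair on which the SLAM gate rests, was 2.49, 1.92 and 3.13 in Asrij low replicates 1 to 3 and 0.14, 0.93 and 0.26 in Asrij high replicates 1 to 3. Every Asrij high library had the lower ratio, with group means of 2.51 ± 0.61 and 0.44 ± 0.43, a difference of -2.07. The log2 ratio of Procr to Cd48 was 2.56, 1.66 and 3.63 in Asrij low and -0.98, 0.15 and 0.33 in Asrij high. Relative to Kit, the log2 difference between groups was -2.44 for Procr, -2.29 for Fgd5, -1.72 for Slamf1, -1.52 for Flt3, -1.40 for Ly6a, -1.34 for Cd27 and -1.26 for Cd34. None of these 7 ratios overlapped between groups. The share of all genes whose ratio to Kit or to Cd48 lies apart was not computed. By CPM, 55.0% of all genes tested lay apart in either direction. The ratio of Cd48 to Kit did overlap (-6.92 ± 0.65 in Asrij low and -6.57 ± 0.32 in Asrij high).

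The falls were unequal among the genes. The log2 ratio of Cd34 to Procr was 2.44, 2.74 and 2.26 in Asrij low and 3.85, 3.74 and 3.37 in Asrij high. Cd34 was thus higher relative to Procr, the gate gene with the largest fall, in every Asrij high library. How often such a ratio lies apart among other pairs of genes was not computed. The log2 ratio of Flt3 to Slamf1, a progenitor and a stem cell marker, was 1.31 ± 0.20 in Asrij low and 1.50 ± 0.70 in Asrij high, and the groups overlapped. That difference turned from 0.20 to -0.12 without Asrij high replicate 3. Asrij high replicate 1 weighed on several ratios to Kit: without it the difference was -1.40 for Fgd5, -0.82 for Flt3, -0.78 for Cd34 and -1.40 for Slamf1. That of Fgd5 was -2.92 without Asrij high replicate 3, and the difference of Cd48 to Kit, 0.35, ran from 0.06 (without Asrij low replicate 3) to 0.70 (without Asrij low replicate 2). These 12 ratios are descriptions without a test.

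**Figure D3:**
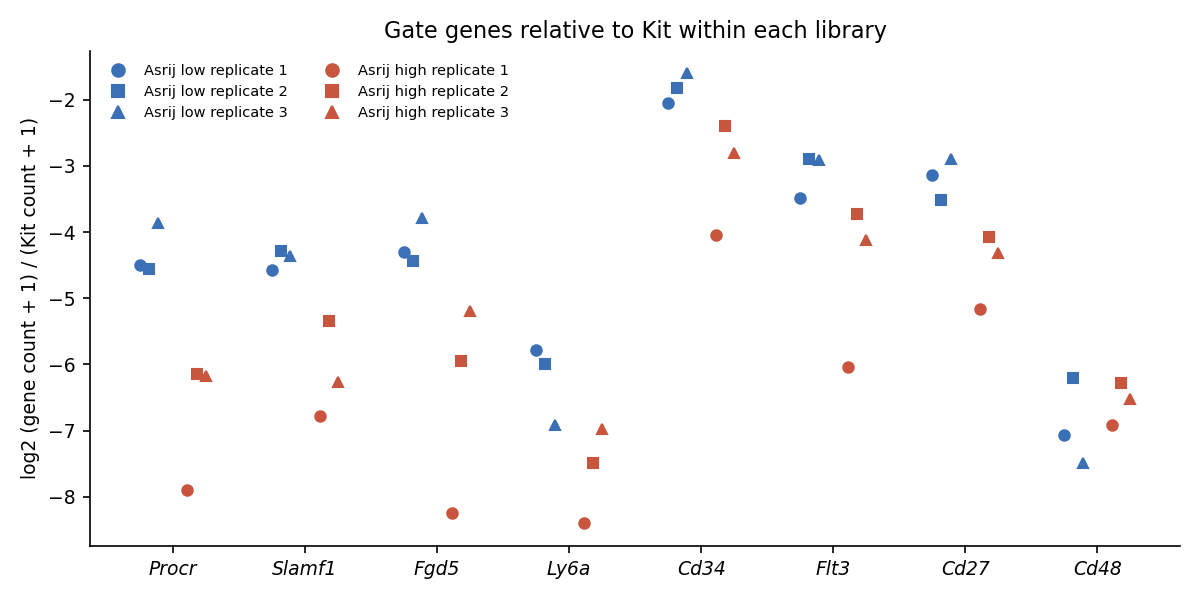
Log2 ratio of each gate gene's count to the count of Kit in the same library (1 count added to each), Asrij low in blue and Asrij high in red, with a marker shape for each replicate number. For 7 genes all Asrij high libraries lie below all Asrij low libraries, closely for Ly6a (-6.92 against -6.98 at the nearest), and the ratios of Cd48 to Kit overlap. The share of all genes with ratios apart was not computed.

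The SLAM receptors are a family of immunoglobulin-type surface receptors, most of which bind another copy of themselves, and their genes lie together on mouse chromosome 1. Of 11 tested genes in a list of these receptors and their adaptors, 7 were lower and 4 did not pass the test (median log2 fold change -1.95), with Slamf1 and Cd48 among the 11. By edgeR 0 were higher, also at an unadjusted p under 0.05 and by DESeq2 and limma-voom. Cd84 fell from 84.2 ± 6.98 to 24.1 ± 8.99 CPM (log2 -1.81 ± 0.26, adjusted p = 0.00103). Slamf7 averaged 2.94 ± 1.31 CPM in the Asrij low libraries and 0.0789 ± 0.0423 CPM in the Asrij high libraries, a log2 difference of -5.16 ± 0.74 (adjusted p = 0.00102). That size rests on few reads, with 54 to 137 counts per Asrij low library and 2 to 8 per Asrij high library. Cd244a, the receptor that CD48 binds, fell from 9.40, 7.31 and 10.5 to 1.29, 3.88 and 1.88 CPM (log2 -1.95 ± 0.45, adjusted p = 0.00853). Ly9 (log2 -1.27), Slamf8 (-3.71) and the kinase gene Fyn (-0.96), named after their values were seen, were the other falls. All 3 lost their call without Asrij high replicate 1 (adjusted p = 0.0559, 0.126 and 0.0571), which left 4 lower genes of the 11. Ly9 also lost its call without Asrij high replicate 3 (0.0579), and Fyn without that library (0.0533) or Asrij low replicate 1 or 2 (0.0724 and 0.0813). Slamf8, with 18 to 66 counts per Asrij low library and 0 to 13 in the others, kept its call only without Asrij high replicate 3 among the 6 fits that left out 1 library.

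By position, Cd48 (chromosome 1, 171681245 to 171705258 in RefSeq on GRCm38.p6) lies between Slamf7 (171632403 to 171653037) and Slamf1 (171767131 to 171801184). Both neighbours were called lower, as were Cd244a and Ly9 before Slamf7 and Cd84 (171839697 to 171890718) after Slamf1. Slamf6 (log2 -2.61, adjusted p = 0.0528) and the more distant Slamf9 (log2 -3.51, adjusted p = 0.0753) did not pass the test, at means of 1.05 and 0.525 CPM in Asrij low.

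**Figure D4:**
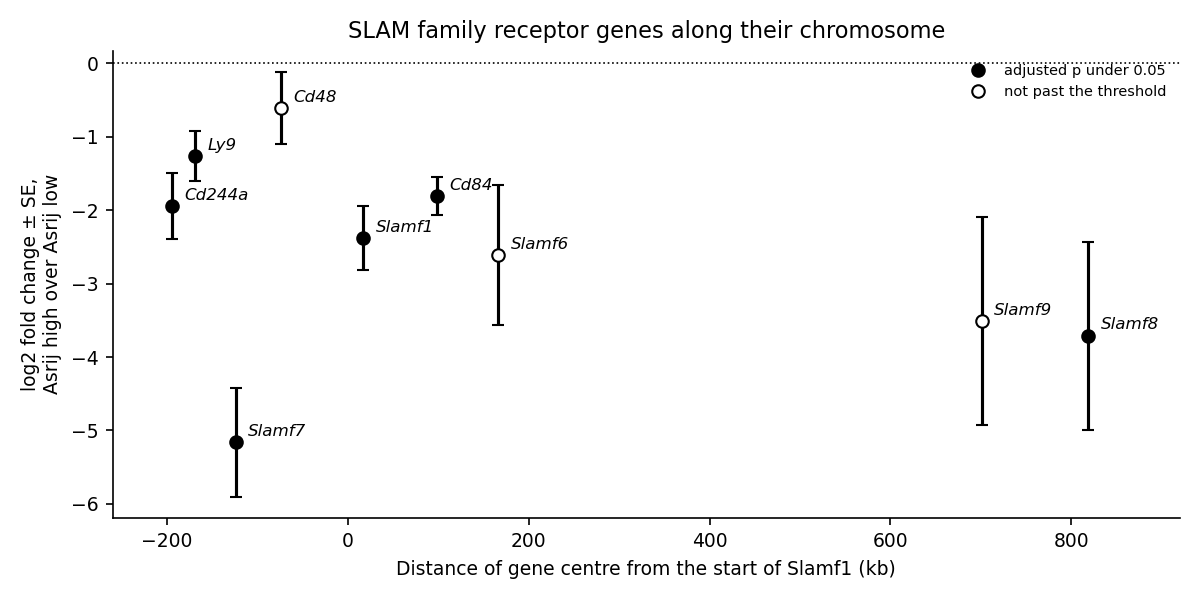
Log2 fold change ± SE of 9 SLAM family receptor genes, Asrij high over Asrij low, against the distance of each gene's centre from the start of Slamf1 in kb, filled where the adjusted p was under 0.05. Cd48, at -0.61, lies nearest to 0 between Slamf7 at -5.16 (2 to 8 counts per Asrij high library) and Slamf1 at -2.38.

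Ligands and partners of the gate proteins were measured in the same bulk libraries, which do not show which cells express them. Of 10 genes 8 were tested, 5 were lower and 3 did not pass (median log2 fold change -1.40), and by edgeR 0 were higher, also at an unadjusted p under 0.05 and by DESeq2 and limma-voom. Kitl, the ligand of Kit and a product of stromal cells, was at 1.78, 2.15 and 10.3 CPM in Asrij low but at 0.165, 0.157 and 0.516 CPM in the Asrij high libraries, a fall of log2 -4.06 ± 0.88 (adjusted p = 0.00591). The library of Asrij low replicate 3 stood far above the others, and without it the log2 value was -2.81 (-4.93 without Asrij high replicate 3). With Asrij high replicate 2 removed besides Asrij low replicate 3, the value was -2.52 and the call was lost (adjusted p = 0.0534). Flt3l, the ligand of FLT3, was at 15.7 ± 2.31 and 15.6 ± 2.44 CPM in the low and high sorts (log2 -0.01 ± 0.24, adjusted p = 0.986). Cd70, the ligand of CD27, had 0 counts in all 6 libraries, which allows up to 3 counts in 24707012 in the smallest. Proc, the ligand of EPCR, had 8 counts in Asrij low replicate 2, 2 in Asrij high replicate 1 and 0 elsewhere, and was not tested.

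Among the partners, F2r, the thrombin receptor that acts with EPCR, fell from 193 ± 59.1 to 65.6 ± 42.2 CPM (log2 -1.56 ± 0.43, adjusted p = 0.0206), a call lost when replicate 1 or 2 of Asrij low, or replicate 1 or 3 of Asrij high, was left out (adjusted p = 0.0594, 0.0504, 0.0774 and 0.0593). Without Asrij high replicate 2 its log2 value was -2.19. Thbd, which encodes thrombomodulin, was at 23.5 ± 5.97 and 9.93 ± 6.96 CPM in the low and high sorts and just missed the threshold (log2 -1.24 ± 0.45, adjusted p = 0.0515), passing it without Asrij high replicate 2 (log2 -1.95, adjusted p = 0.00131). Selp, which encodes P-selectin, did not pass (log2 -1.03 ± 0.41, adjusted p = 0.0737; -1.58 and 0.00585 without Asrij high replicate 2). Of the 15 alternatives, Thbd passed as lower in 10 and Selp in 9, among them library totals (adjusted p = 0.0329 and 0.0442). Cd2, another receptor that binds CD48, had 1.53 ± 0.948 CPM in Asrij low and 12 counts or fewer in each Asrij high library (log2 -4.32, adjusted p = 0.0228). Removal of Asrij low replicate 3 or Asrij high replicate 3 ended its call (adjusted p = 0.0666 and 0.0767), and without Asrij high replicate 2 the log2 value was -6.32. Without Asrij high replicate 3 the list had 3 lower genes, the fewest over the alternatives.

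Of 19 signal carriers of Kit, FLT3 and CD27, 7 were lower (36.8%), 3 higher and 9 not past the threshold (median log2 fold change -0.32). Calls in both directions were also the rule over all genes tested, with 17.7% lower and 21.7% higher. With library totals as the scaling 11 of the 19 were lower and 1 was higher. The Src family kinase gene Lyn was at 96.2 ± 2.72 CPM in the low sort and 45.0 ± 7.86 CPM in the high sort (log2 -1.10 ± 0.17, adjusted p = 0.00146). Also lower were the adaptor gene Gab2 (log2 -0.86) and the phosphoinositide 3-kinase gene Pik3cd (log2 -1.34). The adaptor gene Shc1 rose from 117 ± 1.13 to 224 ± 36.8 CPM (log2 0.94 ± 0.17, adjusted p = 0.00261). The other rises, named after their values were seen, were those of the phosphatase gene Ptpn11 (log2 0.56, adjusted p = 0.0143) and of Siva1 (log2 1.09, adjusted p = 0.0408), which binds CD27. Both were lost with library totals (adjusted p = 0.149 and 0.125), and both were lost without Asrij low replicate 1 (0.0518 and 0.0652) or Asrij high replicate 1 (0.0570 and 0.0965) or 3 (0.0646 and 0.0858), so that Shc1 alone of the 3 stayed called in each of these fits. Siva1 also lost its call without Asrij high replicate 2 (0.0563).

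Other surface markers of stem cells moved as the gate genes did in 13 of 21 cases, with 1 higher and 7 not past the threshold (median log2 fold change -1.74). The adhesion molecule genes Esam (40.9 ± 5.17 to 8.70 ± 5.13 CPM, log2 -2.23 ± 0.40, adjusted p = 0.00264), Pecam1 (log2 -1.77) and Alcam (log2 -1.40) were lower. The tetraspanin gene Cd82 rose from 55.6 ± 8.48 to 145 ± 42.5 CPM (log2 1.38 ± 0.24, adjusted p = 0.00230). In a list of 10 further reporter genes for stem cells, 7 were lower and 3 did not pass (median log2 fold change -1.44), and by edgeR 0 were higher, also at an unadjusted p under 0.05 and by DESeq2 and limma-voom. The transcription factor gene Hlf (log2 -2.62), the keratin gene Krt18 (-2.52, or -3.12 without Asrij high replicate 2), Pdzk1ip1 (-1.39) and the RNA-binding protein gene Msi2 (454 ± 28.9 CPM in the low sort and 226 ± 33.8 CPM in the high sort) were among them.

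Of 13 tested surface markers of later progenitor gates 5 were lower (38.5%), 4 higher and 4 not past the threshold. All genes tested were divided too, with 17.7% lower and 21.7% higher. The transferrin receptor gene Tfrc was higher, at 430.1 ± 154 CPM in the high sort and 59.4 ± 28.9 CPM in the low sort (log2 2.86 ± 0.40, adjusted p = 0.00109). So was the erythropoietin receptor gene Epor, at 153 ± 28.5 and 34.4 ± 2.08 CPM (log2 2.15 ± 0.18, adjusted p = 1.98e-04). Cd24a (log2 1.15), named after its value was seen, and Ly6c2 (log2 2.32) rose too. Both were lost without Asrij high replicate 1 (adjusted p = 0.0609 and 0.111) or 3 (0.0610 and 0.0621), Cd24a without Asrij low replicate 1 (0.0515) and Ly6c2 without Asrij high replicate 2 (0.0671). The falls were those of Csf3r (log2 -1.78), Ly6d (-3.55) and, named after their values were seen, Csf1r (-1.74), Csf2rb (-0.84) and Gfra2 (-3.30). Without Asrij high replicate 1 the counts were 2 lower and 2 higher, without Asrij high replicate 3 they were 3 and 2, and without Asrij low replicate 1 or 3 there were 3 lower. Csf3r did not pass once Asrij high replicate 1 was left out (adjusted p = 0.0559). Csf1r and Csf2rb were lost without Asrij low replicate 1 (0.0529 and 0.0918) or 3 (0.124 and 0.0765) and without Asrij high replicate 1 (0.114 and 0.0657) or 3 (0.105 and 0.0507), and the log2 value of Csf1r without Asrij low replicate 3 was -0.97. Of the Ly6 family, to which Sca-1 belongs, 7 genes were tested. Ly6a and Ly6d were lower, Ly6c2 was higher and Ly6e, at 209.6 ± 21.6 and 223 ± 37.6 CPM, did not pass (log2 0.09 ± 0.18, adjusted p = 0.723). Members of this family resemble each other, so that reads may be split between them.

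**Figure D5:**
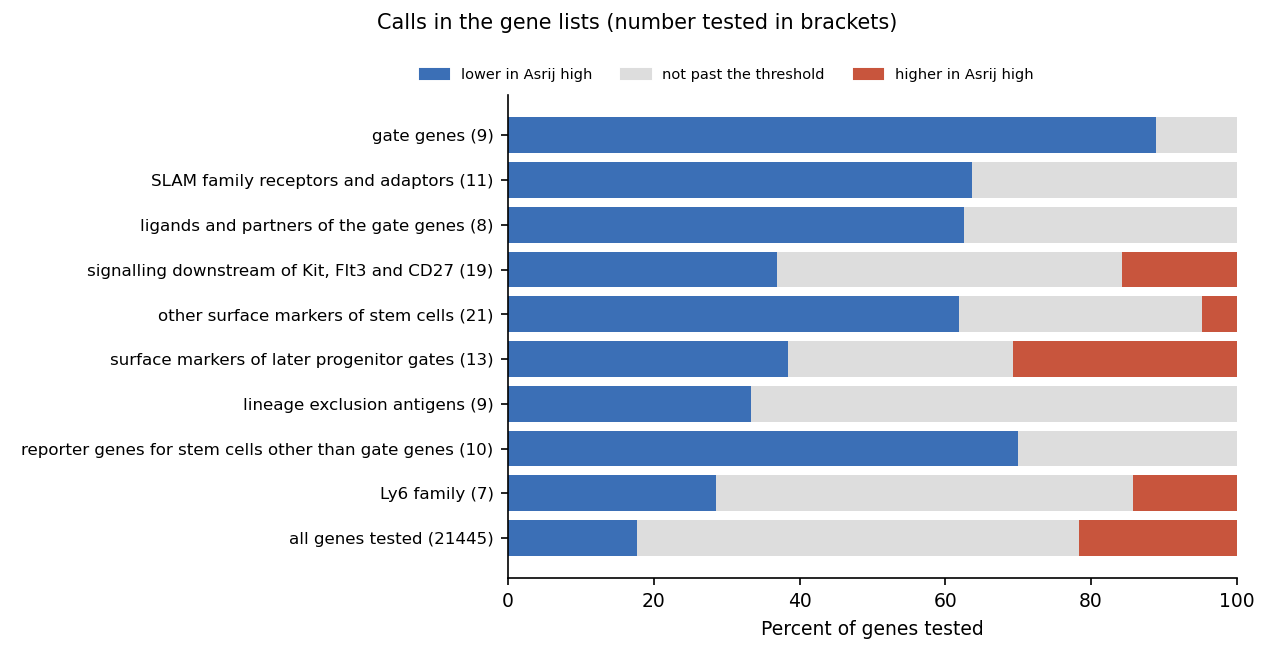
Percent of the tested genes of each list that were lower (blue), higher (red) or not past the threshold (grey) in Asrij high, with the number tested in brackets and all genes tested at the bottom. The gate genes have 8 of 9 lower, against 17.7% of all genes tested. Markers of later progenitor gates have both colours, as do all genes tested, of which 21.7% were higher.

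Antigens that a lineage cocktail excludes were present in part. The CD3 subunit genes Cd3e and Cd3g had 0 to 12 and 0 to 18 counts per library, while Cd3d had 39, 31 and 154 counts in Asrij low and 0, 10 and 131 in Asrij high (log2 -1.83, adjusted p = 0.358). Of 9 tested genes 3 were lower (33.3%), against 17.7% of all genes tested. Among them were Cd4 (log2 -2.55, adjusted p = 0.00301) and Cd8a (-3.72, adjusted p = 0.0274). The other 6 did not pass, among them Itgam at 130.0 ± 80.3 CPM in Asrij low libraries and 93.9 ± 56.5 CPM in Asrij high libraries. Cd8a lost its call without Asrij low replicate 1 (log2 -2.61, adjusted p = 0.133) and without Asrij high replicate 1, 2 or 3 (0.0848, 0.0994 and 0.132), and had 8 to 100 counts per Asrij low library.

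Most tested markers of stromal cells, macrophages, B cells and dendritic cells were lower in Asrij high, like the gate genes. Those of mast cells and basophils, endothelial cells, megakaryocytes and T and NK cells were lower in part or not called. The summed level of 9 stromal markers was 244 to 789 CPM in Asrij low and 23.6 to 76.0 CPM in Asrij high, with 9 of 9 lower (4 without Asrij high replicate 1), and that of 7 macrophage markers was 67.1 to 219 against 32.0 to 40.9 CPM, with 6 lower. The 8 B and plasma cell markers summed to 83.4 to 236 against 17.5 to 24.9 CPM, with 7 lower, and the 6 mast cell and basophil markers to 382 to 687 against 64.7 to 312 CPM, with 3 lower (0 without replicate 2 of Asrij low or 1 of Asrij high, and 1 without replicate 1 of Asrij low or 3 of Asrij high). The 8 endothelial markers summed to 244 to 359.5 against 168 to 403 CPM, with 3 lower (5 without Asrij low replicate 1 or 2), and Cdh5, the endothelial cadherin gene, was at 0.518, 1.11 and 14.7 CPM in Asrij low but at 0.220 to 1.32 CPM in Asrij high. The 6 dendritic cell markers, Flt3 included, summed to 136 to 206 against 25.0 to 54.0 CPM with 3 of 4 tested lower, and Xcr1, a gene of 1 dendritic cell subset, was at 0 in all libraries. The 7 megakaryocyte markers (372 to 594 against 181 to 704 CPM) and the 6 T and NK cell markers (20.7 to 40.5 against 26.7 to 64.4 CPM) had 0 calls by edgeR at either sign, with 1 megakaryocyte gene lower at an unadjusted p under 0.05 and by DESeq2 and limma-voom, and 0 T and NK cell genes by any of these. Without Asrij high replicate 2, 3 megakaryocyte genes were lower.

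Markers of 2 other lineages included genes called higher, as were 21.7% of all genes tested. Of 10 granulocyte and monocyte markers 4 were higher and 1 was lower (487 to 1990.5 CPM summed in Asrij low against 3493 to 4032 CPM), and without Asrij high replicate 1 the higher genes were 2. Those higher were the granule protein genes Ctsg (log2 4.42), Mpo (4.16), Elane (4.15) and Prtn3 (2.24). In the same list S100a8, S100a9, Ltf, Camp and Ly6g did not pass (adjusted p = 0.253, 0.540, 0.908, 0.230 and 0.222). Elane lost its call without Asrij high replicate 1, 2 or 3 (adjusted p = 0.155, 0.106 and 0.0641), without a filter (0.109) and after joint removal of replicate 3 of Asrij low and 2 of Asrij high (0.0871), and Mpo without Asrij high replicate 1 (0.0536). Of 10 erythroid markers 6 were higher and 3 were lower (6065 to 40053 CPM summed against 5259.7 to 8406 CPM). Those lower were the globin genes Hba-a1 (log2 -3.05) and Hbb-bt (-2.85) and the haem synthesis gene Alas2 (-3.08), and without any 1 of the Asrij high libraries none of the 3 was called. Asrij low replicate 3 was far above the rest for each, and without it the log2 values were -1.98 for Hba-a1 and -1.88 for Hbb-bt, both still called. Alas2 had 210.0, 86.1 and 667 CPM in Asrij low against 24.0 to 47.8 CPM in Asrij high, and was called without that library too (adjusted p = 0.0115). The carbonic anhydrase gene Car1 (log2 4.05) and the water channel gene Aqp1 (2.47) were among those higher. The erythroid transcription factor gene Klf1 was at 51.3, 30.4 and 36.3 CPM in the Asrij low libraries and at 181, 153 and 140.4 CPM in Asrij high. Asrij low replicate 3 had the highest stromal, macrophage, B cell and erythroid sums of the 6 libraries. With it left out all 8 calls of the gate genes held, with log2 fold changes of -3.01 for Procr, -2.70 for Fgd5, -2.51 for Slamf1 and -2.67 for Ly6a. Stromal sums were 329.7 and 244 CPM in Asrij low replicates 1 and 2, and B cell sums were 83.4 and 106 CPM. These were all above every Asrij high library, so leaving out replicate 3 does not remove that difference between groups. The erythroid sum of Asrij low replicate 2 (6065 CPM) was within the Asrij high range. The part of these cell types in the gate gene results was not tested.

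Genes with the most similar pattern were sought by the root-mean-square difference of centred log2 CPM over the 6 libraries, among 10764 other named genes with a mean of at least 5 CPM. Kit was nearest to Cilk1 (0.05) and Evi5l (0.07), Cd27 to Acot11 (0.05) and Plxna4 (0.07), and Cd34 to Ppp1r26 (0.06) and Ccdc8 (0.09). Slamf1 was nearest to Mc5r (0.09) and Myct1 (0.10), Procr to Gprc5b (0.14) and Zfp467 (0.15), and Cd48 to Sdr42e1 (0.14) and Slc22a5 (0.18). Flt3 was nearest to Thsd1 (0.16) and Myo5c (0.18), Fgd5 to Klf12 (0.18) and Myof (0.23), and Ly6a, with the least similar neighbours, to Zscan2 (0.29) and Aph1c (0.35). Within the gate genes the closest pair was Cd27 and Cd34 (0.25), and no gate gene was among the 2 nearest of another. Mc5r, for example, had 69.4, 89.4 and 57.3 CPM in Asrij low and 8.50, 23.7 and 9.59 CPM in Asrij high, the order of libraries seen for Slamf1.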

How the data were processed

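Bulk RNA of sorted cells was measured in 6 libraries. The authors deposited raw counts: whole numbers of reads, 1 row per gene symbol. The submitters' processing notes name HISAT2, Subread, SAMtools, FastQC and the build mm10. Tool versions, annotation, strand setting and handling of shared reads were not given in the sources used here, so overlapping and similar genes are uncertain. The labels name polyA RNA as the molecule, whereas the labels' protocols describe ribosomal RNA depletion and a stranded kit.

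The counts were tested with edgeR 4.0.16 in R 4.3.3 (quasi-likelihood, TMM, robust, filterByExpr with minimum count 10 and minimum total count 15), group being the only term, with an adjusted p threshold of 0.05. The script was tested on simulated counts with known changes in a small part of the genes, as many up as down. Such a simulation does not test the scaling where many genes differ, as here. SEs and 95% intervals come from the quasi-likelihood statistic. Alternatives used DESeq2 1.42.0, limma 3.58.1 (voom), other scalings and filters, and left-out libraries. Ratios used counts plus 1. Replicates differed by far more than sampling noise (chi-square 75.3 to 168 per degree of freedom), so none was merged.

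The gate genes and all lists were chosen with earlier results of these data known. Named are all gate genes, Ociad1, all ligands and partners, up to 4 genes with the smallest p past the threshold of each other list (for cell type marker lists, summed levels are given instead, with a few genes only). Cdh5, Xcr1, Hba-a1, Hbb-bt, Alas2, Ly6e, Itgam, Cd3d, Cd3e, Cd3g, Slamf6 and Slamf9 were chosen after their values were seen. So were S100a8, S100a9, Ltf, Camp and Ly6g. Also named are the 2 genes most like each gate gene. Of the genes this rule names, 2 are not reported here. The receptor gene Il7r had been listed as Il7ra and was matched by hand. Promoters are those of RefSeq on GRCm38.p6, found for 8 of the 9 genes. Exon lengths (union of exons, basic set) are from GENCODE M21 on GRCm38.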

Additional observations from a re-analysis of the deposited data

How the results depend on the processing

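For the 9 gate genes 15 alternatives each gave 135 values, all negative, of which 131 kept their side of the threshold. The 4 others were Cd34 (-1.86), Flt3 (-1.99) and Fgd5 (-2.67) without a filter on low counts and Flt3 without Asrij high replicate 3 (-2.05), and the cause was not tested. With 1 library left out Flt3 ran from -2.75 to -1.67. The number of genes called, 8452, ran from 5481 (without Asrij high replicate 1) to 8935 with 1 library left out, and from 8088 to 9736 under the other alternatives. The value of 8088 was that of the replicate block, which changed no call of a gate gene. It ended those of Slamf8 (-4.53, adjusted p = 0.0632), Cd8a (-3.48, 0.0612), Csf1r (-1.55, 0.0542) and Elane (4.50, 0.0502), and Thbd (-1.42, 0.00883) and Selp (-1.16, 0.0124) passed under it. Replicate numbers did not pair the libraries by the correlation of their deviations (0.0126, 0.046 and 0.225 for numbers 1 to 3), and not every library correlated best with its own number. After joint removal of Asrij low replicate 3 and Asrij high replicate 2, 8 gate genes were lower, at -3.24 for Slamf1, -2.84 for Flt3 and -2.57 for Cd34. Flt3l, which was not called, turned to 0.07 without a filter, to 0.14 with either Asrij low replicate 1 or Asrij high replicate 2 left out (range -0.16 to 0.14 over single libraries), and to 0.08 with the joint removal. All 96 alternative values of the 12 ratio differences moved by less than 1 SD (root mean variance of both groups). That SD is wide where Asrij high replicate 1 stood apart. With 3 libraries per group, leaving out 1 cannot move a difference by that much, so those values show nothing about stability. The difference of Fgd5 to Kit, for example, went from -2.29 to -1.40 without Asrij high replicate 1. Among the gate genes the lowest counts in a library were 59 for Ly6a, 66 for Fgd5, 80 for Cd48 and 84 for Procr.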
